A study of Mus musculus with 4 samples.

Results

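Alk, Ltk, Alkal1 and Alkal2, the genes of a small receptor and ligand family, were followed through single-cell RNA profiles of mouse lung tumours. These are 4 of the 32289 features counted in each library, found by symbol, and each symbol matched 1 feature. They were picked because Alk was higher and Alkal1 lower in epithelial cells of the libraries labelled tamoxifen, so that contrast is described here and supports nothing.

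Alk and Ltk encode closely related receptor tyrosine kinases of the insulin receptor superfamily. Alkal1 and Alkal2 encode small secreted proteins that bind the extracellular part of these receptors and activate them, which leads to signalling through adaptors, PI3 kinase and the MAPK cascade. Alk is best known in the developing nervous system and in neuroblastoma, and in a subset of lung adenocarcinomas its kinase part is activated by gene fusion. The libraries read transcripts from their 3′ ends, so a fused or shortened Alk transcript could not be told from a full one.

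All 4 groups came from mice that the labels give as carrying p53frt, Rosa-FSF-CreERT2 and Hnf4aflox. An adenovirus with FlpO under the mSPC promoter (mouse surfactant protein C, a gene of alveolar type 2 cells) was given by intubation, and CreERT2 is present only in cells where Flp has acted. At 10 weeks the mice received tamoxifen or its vehicle, which the labels name in more than 1 way, and macroscopic tumours were taken 2 weeks later. Dissociated cells were kept either as they were ("before depletion") or after removal of CD45+ and CD31+ cells on beads ("after depletion"), which gave 4 groups with 1 library each. The labels call the vehicle samples KP and the tamoxifen samples KPH. The number of animals or tumours per suspension and the animals' age are not given in the sources used here.

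In the order vehicle before, vehicle after, tamoxifen before and tamoxifen after depletion, 7088, 6917, 6105 and 7355 cells were kept, from libraries of 92644997 to 144994771 UMIs. Of these, 1077, 6523, 1083 and 7087 were epithelial-like, meaning cells of clusters in which epithelial markers such as Epcam and Krt8 stood highest. Any pair of libraries shared between 9 and 17 cell barcodes. Each group is a single library, so no spread between replicates can be given. Every interval below is a 95% interval for counting error only (exact Poisson for levels, exact conditional binomial for ratios, Clopper-Pearson for shares), and no p-value is given. Within a treatment, the libraries before and after depletion share their starting suspension, so they are not replicates. Hnf4a, the floxed gene, was higher and not lower in the libraries labelled tamoxifen. In epithelial-like cells, per 1000000 UMIs of the class (CPM), the vehicle libraries held 57.2 and 55.0 and those labelled tamoxifen 86.9 and 82.8. Counts from 3′ ends cannot show whether the floxed part of the gene was removed, so this level does not tell whether Cre acted. Directions below are therefore those of the libraries as labelled.

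The members lie apart in the genome (GENCODE M21, GRCm38). Alk (ENSMUSG00000055471) spans chromosome 17 from 71868972 to 72604627 on the minus strand, with 29 exons in its longest transcript. Ltk (ENSMUSG00000027297) spans chromosome 2 from 119751320 to 119760431 on the minus strand, with 20 exons. Alkal1 (ENSMUSG00000087247) spans chromosome 1 from 6359218 to 6394731 and Alkal2 (ENSMUSG00000054204) spans chromosome 12 from 30884322 to 30893854, both on the plus strand and both with 5 exons. Alkal2 overlaps Acp1, which lies on the other strand and had 29817 UMIs in epithelial-like cells. Whether counting used strand is not given in the sources used here, so the few Alkal2 UMIs are uncertain.

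The paralogs can be told apart by their reads. The coding sequences of the ligands, 384 bases for Alkal1 and 456 for Alkal2 with the stop codon, were 68.1% identical over 373 aligned bases. The longest run shared by their transcripts was 14 bases. Below are the last 240 coding bases of each, 5′ to 3′ from GENCODE M21, with that run in capitals, shown because the ligand counts rest on these genes being distinct.
Alkal1: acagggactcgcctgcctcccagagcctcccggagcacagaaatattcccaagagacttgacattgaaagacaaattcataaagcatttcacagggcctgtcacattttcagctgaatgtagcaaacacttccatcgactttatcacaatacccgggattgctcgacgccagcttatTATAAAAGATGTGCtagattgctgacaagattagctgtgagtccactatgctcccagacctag
Alkal2: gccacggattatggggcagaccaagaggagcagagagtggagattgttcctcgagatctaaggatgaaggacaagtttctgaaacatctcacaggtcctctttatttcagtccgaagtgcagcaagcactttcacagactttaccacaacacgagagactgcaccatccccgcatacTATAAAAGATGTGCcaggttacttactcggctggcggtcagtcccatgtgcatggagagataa
The receptors' coding sequences (4866 bases for Alk and 2667 for Ltk) were 69.0% identical over 2591 aligned bases. Their transcripts shared no run longer than 17 bases. The 120 coding bases around that run are shown, from coding base 3463 in Alk and 1621 in Ltk, with the run in capitals.
Alk: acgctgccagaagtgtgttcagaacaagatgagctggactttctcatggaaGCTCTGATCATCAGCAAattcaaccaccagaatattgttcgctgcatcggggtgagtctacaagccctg
Ltk: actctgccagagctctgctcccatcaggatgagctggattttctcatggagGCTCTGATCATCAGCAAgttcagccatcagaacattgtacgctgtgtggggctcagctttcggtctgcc

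Among the receptors, Alk was by far the more counted in epithelial-like cells. With vehicle its level was 8.07 CPM (7.11 to 9.11) before depletion and 5.19 CPM (4.81 to 5.59) afterwards. The libraries labelled tamoxifen held 35.3 CPM (33.4 to 37.3) and 22.8 CPM (22.0 to 23.6). These rest on 258, 705, 1225 and 3053 UMIs. Both tamoxifen libraries stood above both vehicle libraries. The fold of tamoxifen over vehicle was 4.38 (3.82 to 5.03) before and 4.39 (4.04 to 4.77) after depletion. On the scale log2(CPM + 1) the differences were 2.0 and 1.94.

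Ltk, the sister receptor, was counted at or under 1 CPM throughout. Its levels were 0.44 CPM (0.24 to 0.73), 0.81 (0.67 to 0.98), 0.63 (0.40 to 0.96) and 0.71 (0.57 to 0.87) in the same order, from 14, 110, 22 and 95 UMIs. The intervals of both treatments overlapped in each pair, and the fold was 1.45 (0.71 to 3.06) before and 0.88 (0.66 to 1.16) after depletion. A difference in Ltk was not detectable at this depth.

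Of the ligands, Alkal1 was the one that epithelial-like cells carried. With vehicle it stood at 36.2 CPM (34.2 to 38.4) before depletion and 25.7 (24.8 to 26.5) afterwards, from 1159 and 3485 UMIs. The libraries labelled tamoxifen held 21.7 CPM (20.2 to 23.3) and 18.4 (17.6 to 19.1), from 752 and 2461 UMIs. The tamoxifen libraries were the lower in both pairs, with folds of 0.60 (0.54 to 0.66) and 0.72 (0.68 to 0.75). Libraries of 1 treatment also differed: the log2 ratio of after over before depletion was -0.50 (-0.59 to -0.40) within vehicle and -0.24 (-0.36 to -0.12) within tamoxifen for Alkal1. For Alk it was -0.64 (-0.84 to -0.42) and -0.63 (-0.73 to -0.54).

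Alkal2 had 3, 21, 2 and 15 UMIs in epithelial-like cells of the 4 libraries. That is 0.094, 0.15, 0.058 and 0.11 CPM, and no cell held more than 1 UMI. The fold after depletion was 0.72 (0.35 to 1.47), and none is given before depletion, where both libraries held 3 UMIs or fewer.

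**Figure D1:**
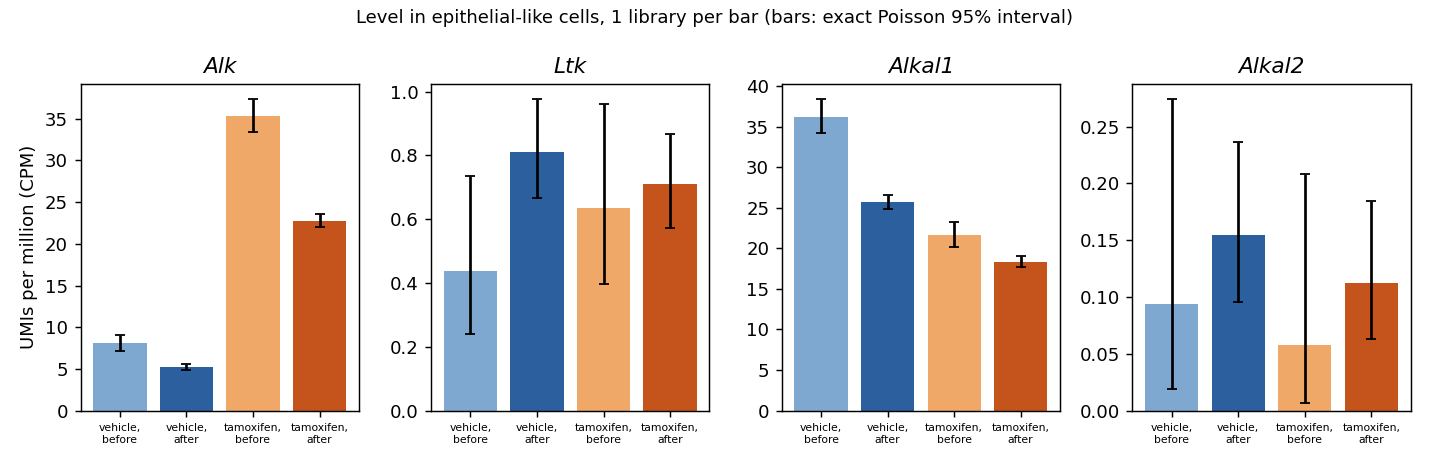
Levels of the 4 genes in epithelial-like cells, in CPM on an axis from 0 that differs between panels, with 1 bar per library and the exact Poisson 95% interval. Alk reached 35.3 and 22.8 CPM in the libraries labelled tamoxifen against 8.07 and 5.19 CPM with vehicle, and Alkal1 stood lower with tamoxifen in both pairs.

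As a size rule in place of a test, a gene had to stand at 10 CPM or more in 1 or both libraries of each pair, with at least a 2-fold difference of the same direction before and after depletion. Alk and Alkal1 passed the level, and Ltk and Alkal2 did not. Alk met the rule, as 1 of 36 of 9042 genes on the higher side (0.398%), and this is the contrast it was chosen on. No member was at least 2-fold lower in both pairs, where 86 of 9042 genes were (0.951%). In single pairs, 54 of 9393 genes were at least 2-fold higher (0.575%) and 133 lower (1.42%) before depletion, and 50 of 9157 were higher (0.546%) and 113 lower (1.23%) after it. Of these genes 6 had a larger ratio than Alk before depletion, and 5 had after it. Alkal1 stayed within 2-fold in both pairs.

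The Alk transcripts were held by few cells. A cell with at least 1 Alk UMI was found among 6.50%, 5.23%, 17.2% and 13% of epithelial-like cells. After thinning each cell to 2000 UMIs the shares were 0.79% (0.34 to 1.55), 0.94% (0.72 to 1.21), 4.66% (3.48 to 6.10) and 3.27% (2.87 to 3.71), with 66, 129, 10 and 53 shallower cells left out. As a measure of free RNA, endothelial-like cells had no Alk UMI in 548 cells at a median depth of 8702 UMIs. Before depletion these cells were low in free epithelial RNA, with 218 and 239 CPM of the surfactant transcript Sftpc. B cell-like cells, with 4022 and 8787 CPM of Sftpc, had an Alk UMI in 3 of 639 cells, and T cell-like cells in 3 of 1890, at medians of 4768 and 5880 UMIs, against medians of 24959, 18242, 28814 and 16849 in the epithelial-like cells. The 1% of epithelial-like cells with most Alk UMIs held 57.4%, 50.6%, 46.4% and 33.3% of all Alk UMIs. Cells with 5 or more Alk UMIs numbered 15, 31, 52 and 184.

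The highest single cell, in the tamoxifen library before depletion, held 104 Alk UMIs of its 73641. Of the 27 epithelial-like cells with 20 or more Alk UMIs, 25 came from the libraries labelled tamoxifen and 2 from vehicle, and they were spread over 9 epithelial clusters. Without the 1% of cells highest for Alk the log2 differences were 2.17 before and 2.19 after depletion. That 1% held a larger share of the Alk UMIs with vehicle than with tamoxifen, so leaving it out raises the ratio. It therefore cannot show whether high cells carried the difference.

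Alkal1 was spread more evenly. A cell with an Alkal1 UMI was found among 35.4%, 25.8%, 28.8% and 20.2% of epithelial-like cells, and thinned shares were 7.81%, 6.33%, 4.38% and 4.36%. The 1% of cells with most Alkal1 UMIs held between 13.6% and 16.5% of them. Endothelial-like cells had no Alkal1 UMI either.

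To map the family onto epithelial states, the epithelial-like cells were clustered again with the 4 members left out of the variable genes, which gave 20 clusters. They are called by number and leading genes. Cluster 0 was led by immune genes (Ccl6, Chil3, Laptm5) with Ptprc, the CD45 gene, in 31.0% of its cells, and its values are marked as such.

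Alk was highest in 4 clusters, named after their values were seen. Cluster 10, led by Rbfox1 and Ceacam10, stood at 68.6 CPM (61.3 to 76.6) over the libraries after depletion. Cluster 11, led by Gm33055, Hgf and Cyp2c40 with the growth regulator Dlk1 among its top genes, stood at 47.1 CPM (44.8 to 49.5). Cluster 3, led by the gut hormone gene Pyy with the gastric gene Gkn1, stood at 45.6 CPM (41.1 to 50.4). Cluster 13, led by Plppr1 and Lypd2, stood at 33.6 CPM (28.9 to 38.9). The intervals of clusters 11 and 3 overlapped, while cluster 10 stood above both and cluster 13 below both. This order pools the treatments and did not hold in each library. Among clusters with at least 20 cells, the highest was cluster 8 with vehicle before depletion (25.7 CPM, 17.1 to 37.2) and cluster 11 after it (34.6 CPM, 22.6 to 50.7). With tamoxifen it was cluster 3 before depletion (82.3 CPM, 70.5 to 95.5) and cluster 10 after it. The first of these rests largely on 1 cell, which held 93 of the 173 Alk UMIs in the 48 cells of cluster 3. In the pooled order after depletion, the next, cluster 8, was at 12.5 CPM (10.9 to 14.3), and the median over all 20 clusters was 7.33 CPM. At the other end were cluster 0 at 1.13 CPM and cluster 5, led by the lysozyme gene Lyz1, Cbr2 and Lyz2, at 1.57 CPM (1.15 to 2.10).

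Alkal1 had a different order. Cluster 6, led by Ryr2, Bex2 and Greb1, stood at 77.1 CPM (72.6 to 81.7), and the Lyz1-led cluster 5 at 74.0 CPM (71.0 to 77.2). This order differed by treatment. With vehicle after depletion cluster 6 stood above cluster 5, at 98.0 CPM (91.6 to 104.7) against 78.9 CPM (74.8 to 83.2), and with tamoxifen below it, at 43.9 CPM (38.5 to 49.7) against 66.8 CPM (62.2 to 71.7). In both, surfactant and other alveolar type 2 markers were high, with a median marker level of 2660 CPM in cluster 6 and 4861 CPM in cluster 5. Cluster 7, led by Cyp2b10, cluster 19, led by the interferon-induced genes Iigp1 and Ubd, and cluster 13 followed at 35.3, 31.3 and 31.2 CPM, with overlapping intervals. Alkal1 was lowest in cluster 1, led by Inhba, Fst and Fbln2, at 1.74 CPM (1.30 to 2.28).

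**Figure D2:**
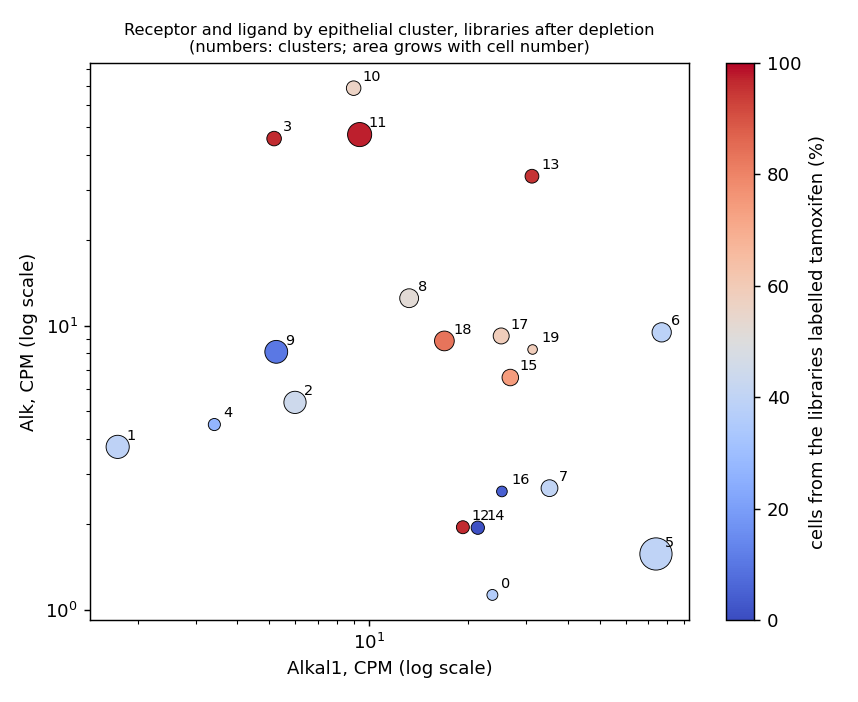
Alk against Alkal1 level in each of the 20 epithelial clusters of the libraries after depletion, in CPM on log axes, with the point area growing with cell number and the colour giving the share of cells from libraries labelled tamoxifen. Clusters 3, 10 and 11 sit high for Alk at an Alkal1 level under 10 CPM, clusters 5 and 6 sit at the right, and cluster 13 is above 30 CPM for both. The levels pool the treatments. Cluster 10 held 11 Alkal1 UMIs with vehicle and 31 with tamoxifen, from 2.23% and 1.22% of all epithelial-like UMIs of those libraries.

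Receptor and ligand levels did not follow each other across states. Over the 62 pairs of cluster and library with at least 20 cells, Pearson's r of the log2 levels was -0.12. This is a description over points that share libraries and depth. Several clusters held UMIs of both genes. Cluster 13 in the tamoxifen library after depletion held 35.0 CPM of Alk (30.1 to 40.4) and 30.5 CPM of Alkal1 (26.0 to 35.7), and cluster 6 in the vehicle library before depletion held 24.4 CPM of Alk (18.4 to 31.7) and 125 CPM of Alkal1 (111 to 140). Over all libraries, Ltk lay between 0.17 and 2.67 CPM in the 20 clusters. An Alkal2 UMI was counted in 12 of the 20 clusters, and no cluster held more than 11.

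Most Alk-high clusters were themselves nearly confined to 1 treatment. Cells from the libraries labelled tamoxifen made up 97.4% of cluster 11, 96.2% of cluster 3 and 95.2% of cluster 13, but 56.3% of cluster 10. With 1 library per group, a state of the treatment and tumours particular to those suspensions cannot be told apart. Clusters 3, 10, 11 and 13 together held 12.8% (8.97 to 17.5) and 14.5% (12 to 17.3) of the Alk UMIs with vehicle, from 2.60% and 3.66% of the epithelial-like cells. With tamoxifen they held 60.1% (57.3 to 62.8) and 75.8% (74.2 to 77.3), from 27.0% and 31.2% of the cells. Cluster 11 alone held 473 of 1225 and 1509 of 3053 Alk UMIs in the libraries labelled tamoxifen.

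With vehicle, the Alk UMIs lay elsewhere. After depletion the largest holder was cluster 9, led by Spink1, Ttr and Agr2, with 33.0% (29.6 to 36.7) of them, and this cluster was 10.4% tamoxifen cells. Cluster 9 stood at 6.71 CPM with vehicle and 18.3 CPM with tamoxifen after depletion. Before depletion the largest holder was cluster 6, with 56 of 258 Alk UMIs (21.7%), followed by cluster 9 with 52, and 30 of the 47 UMIs of cluster 1 with vehicle came from 1 cell.

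Outside clusters 3, 10, 11 and 13, Alk still went from 7.23 to 20.7 CPM before depletion and from 4.58 to 8.47 CPM after it. Few cells carried the first of these: without cells of 20 or more Alk UMIs, an alternative chosen after seeing the data that left out 2 vehicle and 5 tamoxifen cells before depletion, it went from 5.55 to 8.57 CPM, and after depletion from 4.58 to 8.18 CPM. For Alkal1 the pattern differed. Clusters 5 and 6 held 71.4% (68.7 to 74.0) and 64.6% (62.9 to 66.2) of its UMIs with vehicle, from 36.3% and 29.4% of the cells. With tamoxifen they held 46.0% (42.4 to 49.6) and 41.9% (39.9 to 43.9), from 19.1% and 18.4% of the cells. In all other epithelial-like cells Alkal1 went from 13.7 to 13.5 CPM before depletion and from 11.3 to 12.3 CPM after it, so the lower level with tamoxifen was not seen outside these clusters as a whole.

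**Figure D3:**
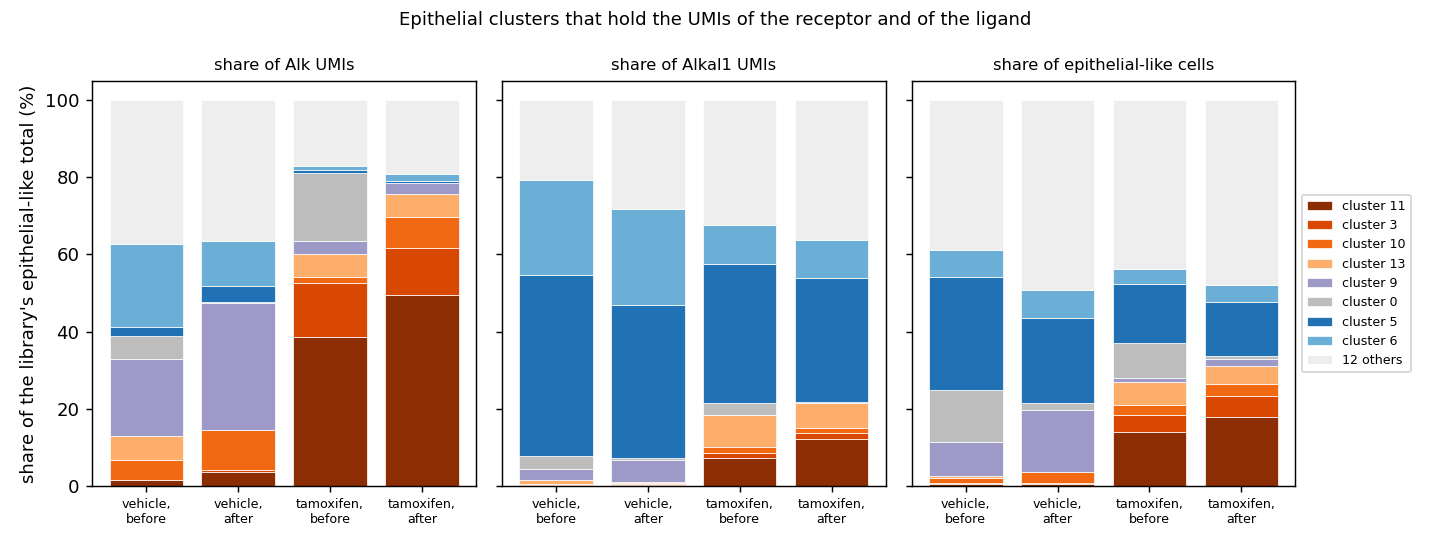
Share of each library's epithelial-like total that fell in each of 8 clusters and in the 12 others, for Alk UMIs, Alkal1 UMIs and cells. Cluster 11 grew from 1.55% and 3.69% of Alk UMIs with vehicle to 38.6% and 49.4% with tamoxifen, while cluster 5 held more Alkal1 UMIs than any other single cluster in every library.

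When cells were compared within clusters, the Alk difference was smaller. In the 9 clusters with at least 20 cells in every library, taken at the same weights, the log2 difference was 0.85 before and 0.52 after depletion, against 2.0 and 1.94 over all cells. The same 9 clusters without reweighting gave 1.38 and 0.79, an alternative chosen after seeing the data. By the sign of the ratio, Alk was higher with tamoxifen in both pairs in 3 of the 9 clusters (2, 17 and 18) and lower in both in 1 (cluster 8). The interval of the log2 ratio spanned 0 in both pairs in cluster 18 (-1.03 to 1.76 and -0.41 to 1.12). In cluster 17 it spanned 0 before depletion (-0.57 to 3.29). With intervals clear of 0, Alk was higher in 2 and lower in 3 clusters before depletion, and in 4 and 1 after it. The 2 were the immune-led cluster 0 and cluster 2, where 1 cell held 104 of 109 tamoxifen UMIs. The 3 were clusters 1, 6 and 8. Cluster 6 went from 24.4 to 11.7 CPM, and 1 cell held 30 of the 47 vehicle UMIs of cluster 1. The 0.85 was thus no rise common to the clusters.

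Cluster 2, led by Acta2, Sbsn and Krt14, went from 1.84 CPM (23 UMIs) to 10.4 CPM (91 UMIs) after depletion. Before depletion it held 3 UMIs with vehicle and 109 with tamoxifen, of which 104 came from 1 cell. The cycling cluster 17, led by Ube2c, Ccnb1 and Mki67, went from 2.87 to 13.6 CPM after depletion, from 16 and 109 UMIs. Cluster 8, led by Mcpt2, Tpsab1 and Muc5b, went from 15 to 10.3 CPM after depletion. In the immune-led cluster 0, 7 of whose 416 cells had 5 or more Alk UMIs, there were 215 Alk UMIs in the tamoxifen library before depletion, 85 and 49 of them in single cells. Without cluster 0, also chosen after seeing the data, the log2 differences over all cells were 1.82 and 1.94.

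Clusters with under 20 cells in a library can still be compared after depletion where both libraries hold cells. Cluster 10 had 180 vehicle and 218 tamoxifen cells and stood at 24.4 CPM (19.2 to 30.7) and 150 CPM (132 to 170). Cells with 5 or more Alk UMIs made up 1.67% of it with vehicle and 5.96% with tamoxifen. Before depletion this gap was not seen: the 12 vehicle cells stood at 33.9 CPM (18.1 to 58.0) and the 29 tamoxifen cells at 50.6 CPM (29.5 to 81.0), and 1 vehicle cell and no tamoxifen cell held 5 or more Alk UMIs. In cluster 11 the 33 vehicle cells stood at 34.6 CPM (22.6 to 50.7) and the 1272 tamoxifen cells at 47.4 CPM (45.0 to 49.8), and these intervals overlapped.

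For Alkal1, the ratio with equal weights was -0.43 before and -0.45 after depletion, against -0.72 and -0.46 over all cells. By sign it was lower in both pairs in 6 of the 9 clusters (0, 1, 5, 6, 17 and 18). Of these, cluster 1 held 2 and 1 UMIs before depletion, and cluster 17 stood at 21.9 and 21.8 CPM there. With intervals clear of 0, Alkal1 was lower in 4 and higher in 0 clusters before depletion, and lower in 6 and higher in 1 after it. The 1 was cluster 7, which went from 31.4 to 40.9 CPM. In cluster 6, the highest for Alkal1 with vehicle, it went from 125 to 62.9 CPM before depletion and from 98.0 to 43.9 CPM after it. The Lyz1-led cluster 5 went from 99.3 to 80.8 CPM and from 78.9 to 66.8 CPM.

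**Figure D4:**
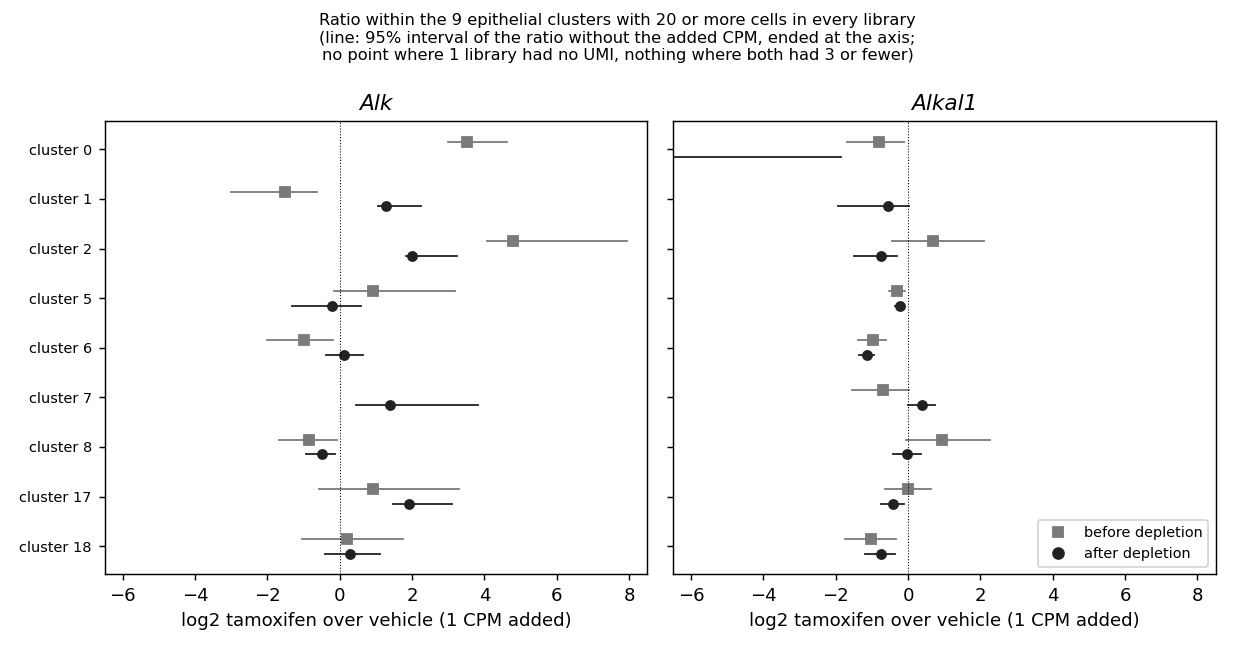
Log2 ratio of tamoxifen over vehicle for Alk and Alkal1 in the 9 clusters with 20 or more cells in every library, before (squares) and after (circles) depletion, with 95% counting intervals. Alk points fall on both sides of 0, highest in cluster 2, while both Alkal1 points of clusters 5, 6 and 18 lie below 0.

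Receptor and ligand were then looked for in the same cells. An Alkal1 UMI was seen in 35.7%, 26.1%, 24.2% and 23.2% of cells with an Alk UMI and in 35.4%, 25.7%, 29.8% and 19.7% of cells without one. The intervals of both shares overlapped in each library. After thinning to 2000 UMIs, 0, 2, 0 and 10 cells had both, of 8, 60, 50 and 230 cells with an Alk UMI. In the last library that is 4.35% (2.10 to 7.85), against 4.37% (3.89 to 4.88) of cells without Alk. The thinned intervals also overlapped in each library. Among all 282 cells with 5 or more Alk UMIs, 27.3% (22.2 to 32.9) had an Alkal1 UMI, against 24.1% (23.4 to 24.8) of the 14255 cells with none, at median depths of 31617 and 17661 UMIs. Of the 282 cells, 236 came from the libraries labelled tamoxifen, so the libraries are better read singly. In cells with 5 or more Alk UMIs and in those with none, Alkal1 stood at 40.5 and 37.6 CPM and at 27.0 and 25.7 CPM in the vehicle libraries, with overlapping intervals. In the tamoxifen library before depletion it was lower in the Alk-high cells, at 10.5 CPM (6.97 to 15.1) against 24.4 CPM (22.6 to 26.4). In the one after depletion it stood at 21.0 CPM (17.4 to 25.1) against 18.4 CPM (17.6 to 19.2), and the share with an Alkal1 UMI was 28.3% (21.9 to 35.4) against 19.7% (18.7 to 20.7), at median depths of 26326 and 16133 UMIs. The direction was thus not the same in all libraries. Only 13 cells held 5 or more UMIs of both genes. Of the 27 cells with 20 or more Alk UMIs, 22 had no Alkal1 UMI.

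Hnf4a was higher in cells with more Alk. In the libraries labelled tamoxifen it stood at 70.5 CPM (69.1 to 71.9) in cells without an Alk UMI, 128 CPM (124 to 133) in cells with 1 to 4, and 181 CPM (172 to 190) in cells with 5 or more. The order was kept within cluster 11 (119, 136 and 176 CPM) and outside it (59.7, 124 and 187 CPM). With vehicle the values were 54.0 CPM (52.9 to 55.2), 72.8 (67.8 to 78.0) and 74.9 (62.8 to 88.7), and the latter pair overlapped. Clusters 10, 3 and 11, high for Alk, had 254, 176 and 128 CPM of Hnf4a, but cluster 13 had 2.96 CPM.

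Outside the epithelium, receptors and ligands were counted in several cell classes, some of which, such as mural-like cells, held both. Alk was almost wholly epithelial: these cells held 92.5%, 99.3%, 97.0% and 100% of the Alk UMIs of the kept cells in the 4 libraries. No Alk UMI was counted in 548 endothelial-like or 292 fibroblast-like cells, where a count of 0 allows levels up to 0.54 and 0.57 CPM. Mural-like cells, the contractile cells around vessels, had 5 Alk UMIs in 138 cells (2.93 CPM, 0.95 to 6.84).

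By class, Ltk stood highest in ciliated-like and B cell-like cells. Ciliated-like cells held 8 Ltk UMIs in 38 cells (12.3 CPM, 5.31 to 24.2), and B cell-like cells held 20 in 639 cells (5.30 CPM, 3.24 to 8.19). Their intervals overlapped, and both stood above the 0.72 CPM (0.63 to 0.81) of epithelial-like cells. In B cell-like cells the UMIs came from both libraries before depletion, 16 with vehicle and 4 with tamoxifen. A cluster of 203 T cell-like cells with Cd8a among its top genes held 6 Ltk UMIs (4.57 CPM, 1.68 to 9.94), an interval that overlapped that of B cell-like cells. Monocyte or macrophage-like cells had none in 1930 cells, and alveolar macrophage-like cells had 2 in 3666.

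Alkal1 was also present in stroma. Over all libraries mural-like cells stood at 24.6 CPM (17.7 to 33.3), epithelial-like cells at 23.3 CPM (22.8 to 23.9) and fibroblast-like cells at 12.4 CPM (9.58 to 15.8). Of the mural-like UMIs, 12 came from 1 cell. Endothelial-like cells had no UMI, which allows up to 0.54 CPM. The 185 cells left unnamed, not all of them stromal, stood at 22.7 CPM (18.1 to 28.0). Of their UMIs, 45 lay in 42 cells that stood highest for epithelial markers, with Ptprc in 81.0% of them. A further 26 lay in 72 cells led by Msln with Sftpd and Sftpc among their top genes, and 14 in 1 cell of a cluster led by Retnlg and S100a9. Sftpc, a surfactant transcript of epithelial cells that enters other droplets as free RNA, gave a scale: before depletion there were 6.09 and 3.43 Alkal1 UMIs per 10000 Sftpc UMIs in epithelial-like cells. Mural-like cells had 545 and 476 and fibroblast-like cells 687 and 465, so the stromal UMIs were not in the epithelial ratio.

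Within the stroma, reclustered without the members, Alkal1 differed between groups of cells. A cluster of 26 fibroblast-like cells led by Lum, Igfbp2, Hhip and Wif1 stood at 56.3 CPM (36.1 to 83.8), and a cluster of 31 mural-like cells led by Ctnna3, Actc1 and the smooth muscle myosin gene Myh11 at 50.8 CPM (30.1 to 80.3). These intervals overlapped. Few cells carried both levels: 18 UMIs lay in 5 cells of the Myh11 cluster, 12 of them in 1 cell. In the Lum-led cluster 24 UMIs lay in 10 cells, 9 of them in 1. The 107 mural-like cells led by the pericyte genes Higd1b and Rgs5 stood at 17.8 CPM (11.4 to 26.4), and 142 fibroblast-like cells led by Mmp3 and Mfap4 at 14.4 CPM (10.0 to 20.2). Whether the 2 mural-like groups differ beyond that 1 cell of the Myh11 cluster was not tested. The 124 fibroblast-like cells led by Has2, Prkg2 and Il11 stood at 2.85 CPM (1.15 to 5.87), with 6 of their 7 UMIs in 1 cell.

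Mural-like cells also had the highest Alkal2 level of the classes, at 4.10 CPM (1.65 to 8.46) from 7 UMIs in 7 cells, 6 of them in the cluster led by Higd1b and Rgs5. Epithelial-like cells stood at 0.12 CPM (0.087 to 0.17). The 7 UMIs came from all 4 libraries, as 2, 2, 1 and 2 in the order above. Acp1, on the other strand, makes this count uncertain.

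Among dendritic cell-like cells, Alkal1 lay mostly in 1 group. The class held 91 Alkal1 UMIs in 846 cells (5.69 CPM, 4.58 to 6.99). Reclustered without the members, 74 of the 91 fell in 129 cells led by Mctp2, Grm8, Klk1, Cox6a2 and Siglech, the last a lectin known from plasmacytoid dendritic cells. That cluster stood at 47.8 CPM (37.5 to 59.95), with 24.8% of its cells holding a UMI. Its UMIs came from both libraries before depletion, 31 with vehicle and 43 with tamoxifen, and its Sftpc level was 246 CPM. A further 16 UMIs fell in 17 cells led by Gkn2, Lcn2 and Sftpa1 with 44064 CPM of Sftpc, and 1 in 24 cells led by Chil3. The other 8 clusters, with Sftpc between 162 and 397 CPM, had no Alkal1 UMI, among them 92 cells led by Xcr1 and Cd207 and 183 led by Cd209e. This subdivision was added after the level of the class was seen. The B, T and NK cell-like, macrophage-like, monocyte-like and neutrophil-like classes lay between 0.47 and 5.19 CPM of Alkal1.

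**Figure D5:**
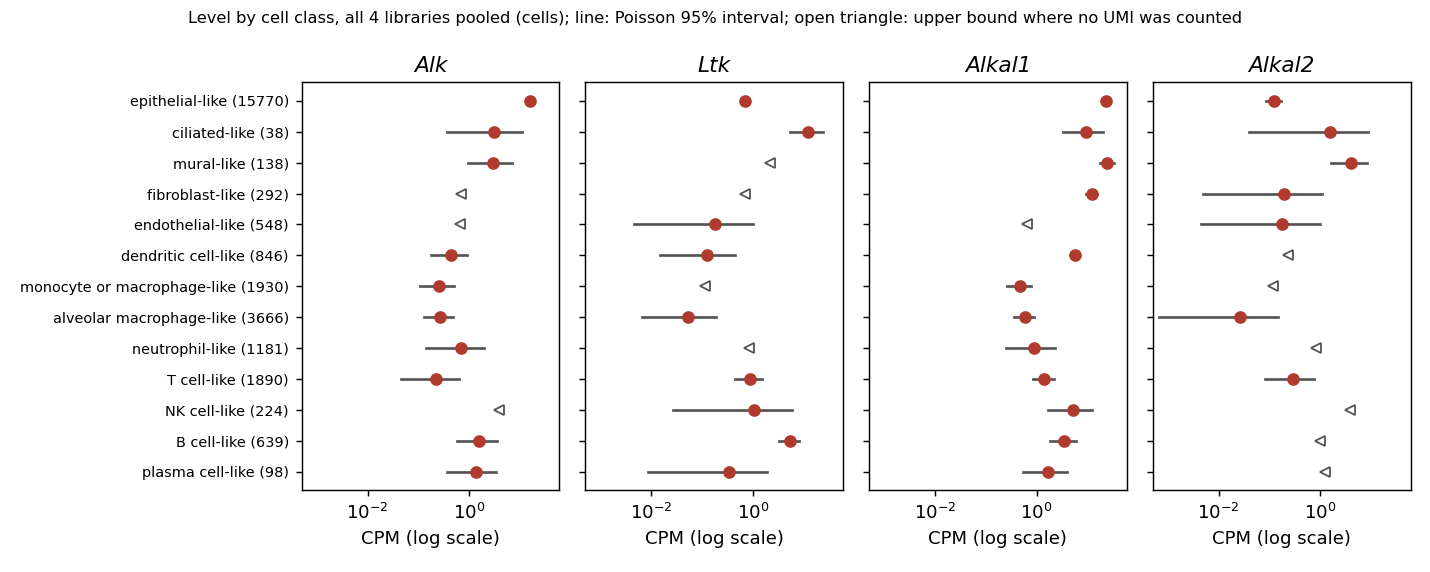
Levels of the 4 genes by cell class over all libraries, in CPM on a log axis, with cell numbers in brackets, exact Poisson 95% intervals as lines and open triangles at the upper bound where no UMI was counted. Alk stands highest in epithelial-like cells at 15.6 CPM, Ltk in ciliated-like and B cell-like cells, Alkal1 in mural-like and epithelial-like cells, and Alkal2 in mural-like cells at 4.10 CPM.

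By treatment, the stromal ligand values were too few to separate. Mural-like cells had 13 CPM (4.76 to 28.2) and 45.2 CPM (27.6 to 69.8) of Alkal1 with vehicle before and after depletion, from 6 and 20 UMIs. With tamoxifen they had 11.1 CPM (3.6 to 25.9) and 31.5 CPM (15.7 to 56.3), from 5 and 11 UMIs. Set against the epithelial-like cells of the same vehicle library, the mural-like level was lower before depletion and higher after it. In the vehicle library after depletion 1 mural-like cell held 12 of the 20 UMIs, so the higher level there rests largely on 1 cell. Fibroblast-like cells went from 10.9 to 9.42 CPM before depletion and from 19.3 to 8.98 CPM after it, from 7 to 25 UMIs, and the treatments' intervals overlapped in each pair.

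Other genes of the pathway were read in epithelial-like cells by the same size rule. Of 5 lists (19 adaptors and effectors of ALK, 14 heparin-binding cytokines and cofactors, 9 related receptor tyrosine kinases, 16 MAPK output genes and 16 neural crest and neuroendocrine genes), 15, 8, 4, 15 and 1 members reached 10 CPM in each pair. None of these met it, against 122 of 9042 genes (1.35%). The median log2 ratios before and after depletion were -0.12 and 0.13 for the adaptors, -0.10 and -0.10 for the cytokines and cofactors, 0.25 and 0.41 for the kinases, and 0.066 and 0.10 for the MAPK output genes. Over all 9042 genes they were -0.039 and 0.011.

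The most abundant adaptors and effectors were Stat3, a transcription factor (215, 154, 172 and 155 CPM in the library order), Pik3ca, the catalytic PI3 kinase subunit (123, 94.6, 94.9 and 88.4 CPM), and Grb2, an SH2 adaptor (101, 84.7, 93.0 and 84.3 CPM). Among cofactors, the syndecans Sdc4 and Sdc1 and nucleolin (Ncl) lay between 395 and 772 CPM with ratios from -0.33 to 0.075. Mdk, a heparin-binding cytokine also named after its values were seen, went from 37.8 to 48.1 CPM before depletion and from 35.6 to 57.8 CPM after it.

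Among related kinases, Igf1r went from 123 to 163 CPM before and from 95.7 to 147 CPM after depletion. Ros1, a kinase related to Alk and Ltk, went from 97.5 to 130 and from 93.1 to 128 CPM, and Met from 95.1 to 85.6 and from 78.8 to 85.5 CPM. Of 15 MAPK output genes 10 had a positive ratio in both pairs and 3 a negative one, where 3162 of all 9042 genes had a positive and 3644 a negative one. Egr1, an immediate early factor, went from 1069 to 1292 CPM before depletion and from 1022 to 1402 CPM after it. Phlda1 had ratios of 0.024 and 0.10 and the cyclin gene Ccnd1 0.041 and 0.10. The member nearest to a 2-fold difference was Fosl1, an AP-1 subunit named after its values were seen, which went from 28.7 to 14.3 CPM and from 40.6 to 20.8 CPM. Of the neural crest and neuroendocrine genes only Mycn passed the level, at 16.4, 12.6, 13.5 and 11 CPM. Uchl1, a neuronal deubiquitinase, stood at 6.63, 6.54, 7.69 and 3.32 CPM, and Ncam1, an adhesion molecule, at 3.25, 1.97, 1.38 and 1.60 CPM. Of the others, named after their values were seen, Insm1, Chga and Chgb stood under 1 CPM in every library, and Hand2, a transcription factor of sympathetic neurons, had no UMI.

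The genes most like each member were sought over the 62 pairs of cluster and library, among 10773 genes with a mean of at least 5 CPM. Most like Alk by Pearson's r of log2 levels were Mctp1, a calcium-binding membrane protein (r = 0.74), Kif3c, a kinesin subunit (0.66), Homer1, a postsynaptic scaffold (0.65), Celf4, an RNA-binding protein (0.65), and Atp13a4, a transport ATPase (0.65). Their own ratios of tamoxifen over vehicle lay between 0.13 and 0.70, under that of Alk. Most like Alkal1 were Sort1, the sorting receptor sortilin (0.89), Slc24a4, an ion exchanger (0.88), Lrp2, the endocytic receptor megalin, Ppp1r14c, an inhibitor of a phosphatase, and Snx25, a sorting nexin (0.87 each). The best r of Alk was thus below each of the 5 for Alkal1.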

How the data were processed

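The authors deposited UMI counts per gene and cell, written by Cell Ranger 7.0.1 per the file headers (7.2.0 with mm10 per the submitters' processing notes), from 3′ version 3 chemistry per the labels' protocols. 1 further allele in the labels, shared by all groups, is not reported here.

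Barcodes under 200 genes or over 20% mitochondrial UMIs were left out, as were those with a Scrublet score of 0.25 or more (scanpy 1.11.5). Scrublet's own threshold marked 192, 1, 91 and 0 cells and had not worked after depletion. Cells of all libraries were clustered together (2000 variable genes, 40 components, 15 neighbours, Leiden resolution 1) and named from fixed markers. UMIs were summed by class, cluster and library and scaled by the class total (CPM). Ratios used a pseudocount of 1 CPM, folds none. The size rule was checked on simulated counts. Named are the 4 members, the 3 most abundant genes of each list, list genes past the size rule, and the 5 genes most like Alk and Alkal1. Members, lists and markers were chosen with earlier results of these data known. Of 32289 features, 32235 matched GENCODE M21. Limits for a count of 0 stand for 3 counts. With 1 library per group there was no test.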

Additional observations from a re-analysis of the deposited data

Results flagged for a closer look

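The Alk ratio of cluster 1 went opposite ways in the pairs, with a log2 ratio of -1.51 before and 1.28 after depletion, and the difference was not tested. Before depletion it rests on 47 UMIs with vehicle, 30 of them in 1 cell, and 8 with tamoxifen.

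Cluster 8 stood against the epithelial-like class as a whole: Alk was lower with tamoxifen there, at -0.50 after and -0.84 before depletion, while the class was higher in both pairs. This was not tested either.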

How the results depend on the processing

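All 13 alternatives for each pair kept Alk higher and Alkal1 lower with tamoxifen. The Alk log2 ratio ranged from 0.85 to 2.17 before and from 0.52 to 2.19 after depletion, and that of Alkal1 from -0.93 to -0.43 and from -0.64 to -0.35. Equal weights of clusters moved Alk to 0.85 and 0.52 and Alkal1 before depletion to -0.43. Leaving out clusters mostly of 1 treatment, chosen after seeing the data, gave 1.38 and 0.79 for Alk and -0.60 for Alkal1 after depletion. Averaging CPM cell by cell gave 1.78 and 1.79 for Alk and -0.90 and -0.64 for Alkal1. Choosing cells one by one, by epithelial UMIs and no UMI of Ptprc, Pecam1 or collagen, gave 1.43 for Alk before depletion and -0.93 and -0.55 for Alkal1. For Alk after depletion a pseudocount of 0.1 CPM gave 2.11, and leaving out the 1% of cells with most Alk UMIs gave 2.19. Without the Lyz1-led cluster Alkal1 stood at -0.57 and -0.35. At resolution 0.5 Alk was higher in 5 of 7 clusters, and at resolution 1.5 Alkal1 was lower in 3 of 10. Genes past the size rule, 122 in the report, numbered 216 with no CPM minimum (53 higher, Alk among them) and 13 at a log2 ratio of 2 (3 higher, without Alk). Other scalings moved the median gene by at most 0.060. The causes were not tested, except that weights and left-out clusters or cells change which cells are counted. No paired analysis was possible because each group holds 1 library and the labels carry no replicate numbers.

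Depth limits Ltk and Alkal2, each under 1 CPM in epithelial-like cells, and every class with under 50 cells in a library, mural-like cells included.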
